A study of Mus musculus with 74 samples.

Results

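This account compares the effect of fenretinide on white adipose tissue between 2 days of treatment, in all 14 white adipose arrays of the fenretinide study, out of 74 arrays in the series. Members were every array labelled as white adipose tissue, and no measured value entered that choice. The mice were male B6C3F1, a hybrid strain used in carcinogenicity studies, and they carried no transgene or deletion by the labels. Fenretinide, a synthetic retinoid, was given in the diet at 500 mg/kg for 15 or 29 days, and the controls received vehicle for as long. Day 15 had 3 vehicle mice (48, 49 and 50) and 3 treated mice (57, 58 and 59). Day 29 had 4 vehicle mice (81, 83, 85 and 86) and 4 treated mice (91, 93, 94 and 95). Each mouse gave 1 array and was measured on 1 day only, so persistence here is between groups of different animals. The series was designed to find when proliferative or hypoxic changes appear in tissues where hemangiosarcomas, tumours of endothelial cells, develop.

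Retinoids act through nuclear retinoic acid receptors, which bind paired half-sites in DNA and switch on genes such as those of the CYP26 enzymes that break retinoic acid down again. Fat is a store of retinol, the parent alcohol, and of its esters. The p53 protein is a transcription factor that answers DNA damage and other stress by raising inhibitors of the cell cycle and its own inhibitor Mdm2.

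All values are log2 of the deposited array intensity, and an effect is the treated minus the vehicle mean on a day. The difference between days is the day 29 effect minus the day 15 effect, so a negative value means a rise that shrank or a fall that deepened. A gene is called when its limma p-value, adjusted by Benjamini-Hochberg over 18193 genes, is below 0.05. An effect faded when the difference was called, day 15 was called and the effect was smaller on day 29. It built up when the difference was called, day 29 was called and the effect was larger on day 29. It persisted when both days were called in the same direction, whatever the difference.

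Some libraries stood apart before any comparison. Adipocyte genes averaged 13.51 to 13.6 in vehicle and 13.06 to 13.46 in treated mice of day 15. On day 29 they averaged 13.62 to 13.69 under vehicle and 13.31 to 13.47 under fenretinide. Adipoq, the adipocyte hormone adiponectin, lay between 14.77 and 14.99 in each of the 14 libraries. Smooth muscle markers averaged 13.38 in treated mouse 59 of day 15 and 8.79 to 10.12 in the other libraries. Hepatocyte markers averaged 12.15 in treated mouse 95, 10.85 in vehicle mouse 86 and 9.78 in treated mouse 93, against 6.52 to 8.36 elsewhere. Brown fat markers averaged 10.69 in treated mouse 93, 9.15 in vehicle mouse 85, 8.61 in treated mouse 91 and 8.49 in vehicle mouse 86, against 6.58 to 7.81 elsewhere. Skeletal muscle markers were high in the same 4 libraries (8.60 to 11.24, against 6.08 to 7.21). Inflammatory genes averaged 9.82 in treated mouse 91, 8.73 in vehicle mouse 50, 8.53 in treated mouse 93 and 8.35 in treated mouse 95, against 6.98 to 7.58 elsewhere. In these bulk samples, fewer cells of a type and less RNA per cell cannot be told apart.

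Few effects called on day 15 were called again on day 29, and far more were classed as faded than as built up. The difference between days was called for 242 genes (1.33% of those tested), 231 lower (1.27%) and 11 higher (0.0605%). The effect faded for 205 genes, of which 200 had been raised on day 15, and built up for 22 genes, of which 19 were lower with fenretinide on day 29. It persisted for 48 genes (0.264%), 30 raised and 18 lowered on both days. A further 15 genes had a called difference although neither day was called. Fenretinide changed 719 genes on day 15 (3.95%), 595 higher (3.27%) and 124 lower (0.682%), and 244 on day 29 (1.34%), 75 higher (0.412%) and 169 lower (0.929%). The 50 genes called on both days made up 6.95% of the day 15 calls and 20.5% of the day 29 calls, and 2 of the 50, Gpr155 and Map7, changed sign. Many effects could not be sorted. Of the day 15 calls, 466 were neither called on day 29 nor different between days. All 466 were smaller on day 29. The other way round, 174 of the day 29 calls were neither called on day 15 nor different between days, and all 174 were larger on day 29. A faded effect needs a call on day 15 and a built up one a call on day 29. The counts of the 2 classes thus also depend on the number of calls on each day.

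**Figure D1:**
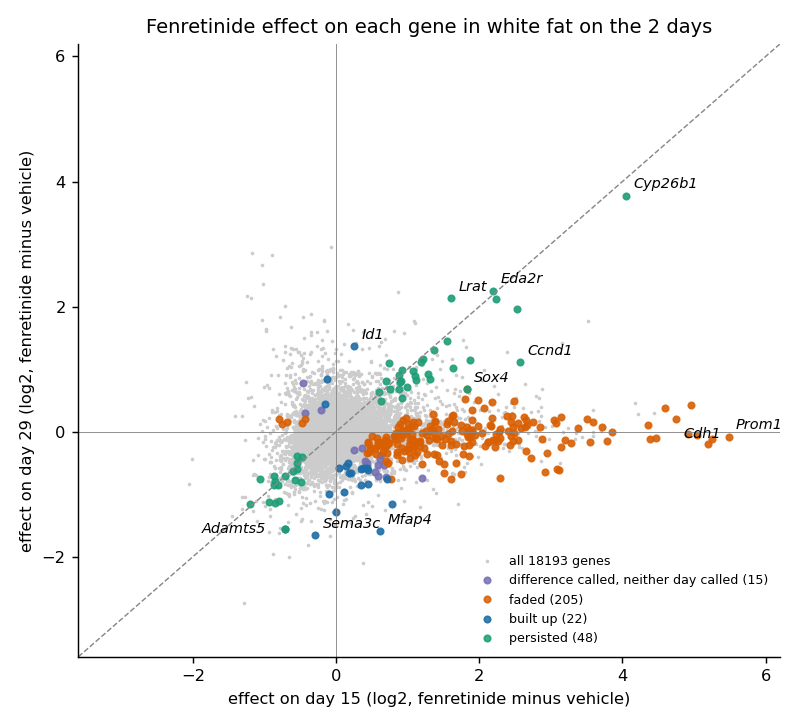
Each point is 1 gene, with its fenretinide effect on day 15 on the horizontal axis and on day 29 on the vertical axis, both in log2 units. The dashed line marks equal effects. The 205 faded genes lie mostly along the horizontal axis, the 48 persisting genes near the dashed line, and the 22 that built up mostly below zero on day 29.

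The faded genes moved more in treated than in vehicle mice. Between the days, the vehicle groups differed in 0 genes (0.0%) by limma, with 1818 genes at an unadjusted p under 0.05. The treated groups differed in 580 genes (3.19%), 514 lower on day 29 (2.83%) and 66 higher (0.363%). These contrasts share their samples with the difference between days, so they only describe it. Of the 205 faded genes, 198 moved more in treated than in vehicle mice, and 192 had a day 29 effect under 0.5 in size.

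Treated mouse 59 weighed on the counts. Without it, the difference was called for 716 genes, 693 of them lower (3.81%), the effect faded for 625 and built up for 40, and day 15 had 939 genes raised (5.16%). Of the 242 genes first called, 237 were called again. Leaving out any other single array gave 125 to 262 called differences, with the fewest without vehicle mouse 48 (125), vehicle mouse 50 (128), vehicle mouse 83 (143) and treated mouse 58 (144). The persisting count was as sensitive to the day 29 arrays, at 14 without treated mouse 94, 16 without vehicle mouse 83, 17 without vehicle mouse 81, 20 without vehicle mouse 85 and 21 without treated mouse 95. It was 22 without either vehicle mouse 48 or 50, 23 without treated mouse 57, 28 without vehicle mouse 49 and 32 without treated mouse 91. Of 41 named genes with a called difference, 16 were called in each of the 23 or 24 settings run, among them Prom1, Cdh1, Mcm6, Sgms2, Stard4, Mfap4 and Gpr155. Acot1, Adamts5, Ankrd37, Calml3, Col6a2, Fstl3, Id1, Matn2, Mcm5, Uhrf1 and the 6 named genes called on neither day were called in 5 to 10 of them. The split between directions also depended on scaling. Median centring of the arrays shifted the median difference of all genes from 0.01 to 0.16, and the share of called differences that were lower went from 95.5% to 67.7% (84.7% after quantile normalization). The share of day 15 calls that were higher went from 82.8% to 23.9% and 63.6% in the same order. The genes called higher on day 15 numbered 595, 552 and 550, so that share moved through the lower calls.

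The retinoid genes that fenretinide raised on day 15 were raised again on day 29, Cyp26b1 and Rarb by similar amounts. Of 22 measured genes of retinoid response and handling, Cyp26b1, Lrat and Rarb rose on both days, and Rxra fell on day 15 alone. Of all genes, 3.27% rose on day 15 and 0.412% on day 29. None of the 22 had a called difference between days (5 at an unadjusted p under 0.05 by limma, against 15.7% of all genes). Without treated mouse 59, 4 rose on day 15 and 1 difference was called, lower. The fall of Rxra was not called then, nor without mice 95 and 86, nor without mice 50 and 91, and without mice 50 and 91, 2 genes rose on each day. The median effect of the list was 0.10 on day 15 and 0.11 on day 29, against -0.04 and -0.02 over all genes.

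Cyp26b1 encodes an enzyme that oxidises retinoic acid. It measured 6.82, 7.04 and 6.68 in vehicle mice and 10.93, 11.09 and 10.68 in treated mice on day 15. On day 29 it measured 6.53, 7.17, 7.21 and 6.94 in vehicle mice and 11.07, 10.35, 10.61 and 10.93 in treated mice. Every treated library was above every vehicle library on both days, by about as much. The effect was 4.05 ± 0.21 (SE; 16.6-fold, adjusted p = 1.89e-07) on day 15 and 3.77 ± 0.18 (13.7-fold, adjusted p = 4.53e-07) on day 29. The difference between days was -0.28 (95% interval -0.87 to 0.32, adjusted p = 0.67).

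Lrat encodes the enzyme that esterifies retinol for storage. Its level was 4.86, 5.04 and 5.06 in vehicle and 6.45, 6.87 and 6.45 in treated mice of day 15. On day 29 the vehicle mice had 4.81, 5.22, 4.96 and 4.74 and the treated mice 7.28, 6.63, 7.38 and 7.0. The groups were apart on both days, and the day 29 effect of 2.14 ± 0.16 was nominally larger than the day 15 effect of 1.60 ± 0.19. The difference of 0.54 was not called (adjusted p = 0.322), and its interval reached 1.07.

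Rarb, a retinoic acid receptor and a known target of retinoic acid itself, rose by 0.88 ± 0.19 on day 15 (adjusted p = 0.0211) and by 0.91 ± 0.17 on day 29 (adjusted p = 0.0244). Its vehicle levels ran from 6.61 to 7.41 and its treated levels from 7.75 to 8.42 over both days, without overlap. The difference between days was 0.03, with an interval from -0.52 to 0.57. Cyp26a1, the other main enzyme of retinoic acid breakdown, had no called effect, at 0.00 on day 15 and 1.32 ± 0.60 on day 29 (adjusted p = 0.33). Its treated values on day 29 were 6.67, 8.23, 7.08 and 10.37, and the high one was mouse 95, the library with the highest hepatocyte markers. The part of that material in the value was not tested. Crabp2, Stra6, Dhrs3 and Rbp4, which bind, import, reduce or carry retinoids, were not called on either day (differences of 0.15, -0.09, 0.01 and 0.24).

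The promoters of these genes were searched because the repeat bound by retinoic acid receptors is known. The search took GTTCA, then 6 bases of any kind, then GTTCA, on both strands, in the RefSeq windows of 250 bases before to 50 after each gene's start. The repeat was in 0.0761% of 32851 promoters. Of 34 persisting genes with a window, Rarb alone held it, and of the named genes without a called effect, Cyp26a1 held it. With GGTCA in place of GTTCA, 0.1% of promoters matched and no persisting gene did. Both matching windows are shown with both half-sites in capitals, Rarb at chr14:16575427-16575726 on the minus strand and Cyp26a1 at chr19:37697558-37697857 on the plus strand, both in GRCm38.p6 and 5′ to 3′ along the gene. The Cyp26a1 repeat reads on the opposite strand.
Rarb: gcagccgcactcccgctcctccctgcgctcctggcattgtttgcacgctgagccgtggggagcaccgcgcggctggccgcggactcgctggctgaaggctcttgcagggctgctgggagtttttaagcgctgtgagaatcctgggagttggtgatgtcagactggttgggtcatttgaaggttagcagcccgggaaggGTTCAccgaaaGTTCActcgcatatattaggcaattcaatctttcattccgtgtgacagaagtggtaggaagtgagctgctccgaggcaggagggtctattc
Cyp26a1: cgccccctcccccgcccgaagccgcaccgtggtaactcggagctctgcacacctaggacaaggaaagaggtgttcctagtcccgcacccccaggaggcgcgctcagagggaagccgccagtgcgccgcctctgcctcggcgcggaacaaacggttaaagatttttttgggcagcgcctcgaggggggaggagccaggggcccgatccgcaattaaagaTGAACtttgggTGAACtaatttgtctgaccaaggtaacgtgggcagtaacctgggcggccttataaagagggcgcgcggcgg
The repeat began 52 bases before the start of Rarb and 32 bases before that of Cyp26a1. The windows of Cyp26b1 and Lrat held no such letters. A match describes the sequence and is not evidence of binding.

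**Figure D2:**
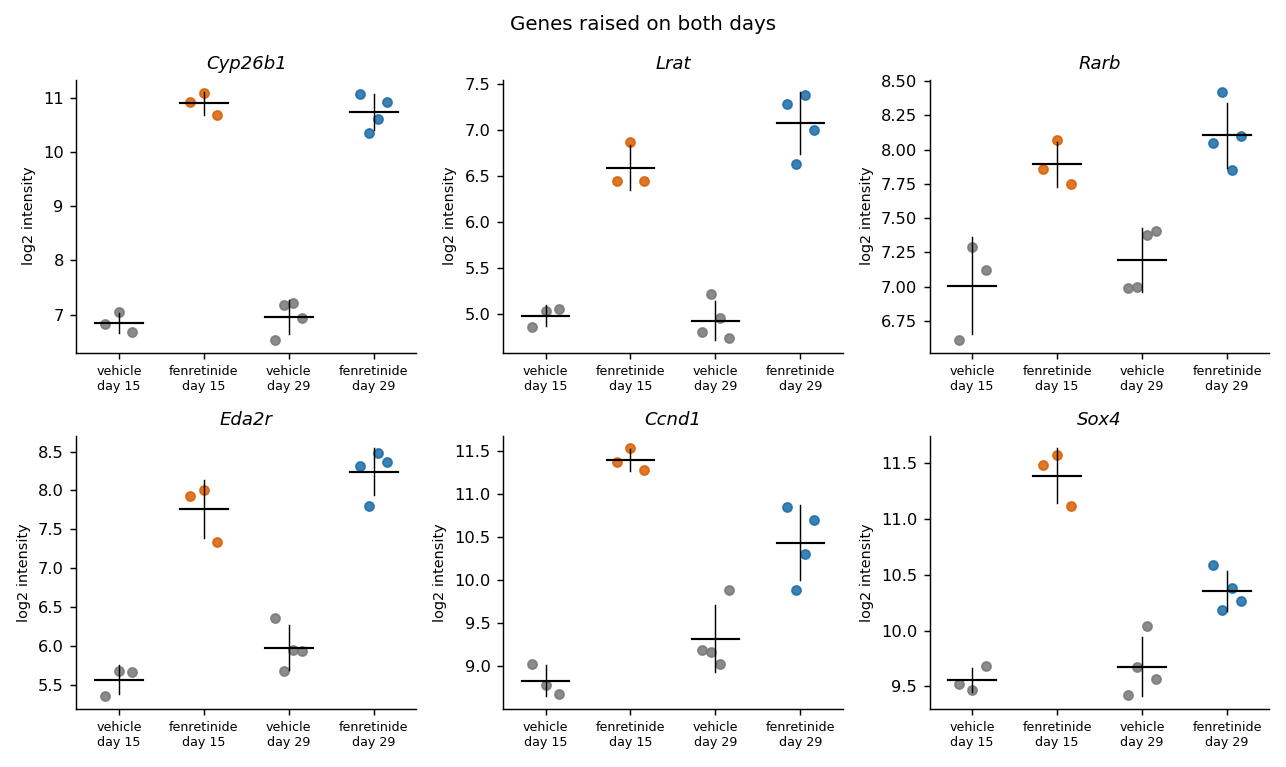
Log2 intensity of 6 genes raised on both days, 1 point per mouse, with the mean (long line) and SD (short line) of each of the 4 groups. Cyp26b1, Lrat, Rarb and Eda2r keep their distance from vehicle on day 29, while Ccnd1 and Sox4 lie closer to it.

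Of 23 measured genes of the p53 response, 7 rose on day 15 (3.27% of all genes did) and none fell. On day 29, 4 rose (0.412% of all genes did) and Sesn1 fell. The list held 3 persisting genes (0.264% of all genes persisted), and 1 member had a called difference (1.33% of all genes). The number raised on day 29 was 1 without treated mouse 95 and vehicle mouse 86, and 1 without vehicle mouse 50 and treated mouse 91. The fall of Sesn1 was not called without either pair, nor without treated mouse 93 and vehicle mouse 85. The list's median effect was 0.39 on day 15 and 0.32 on day 29. Eda2r, a death-domain receptor of the TNF family, had the largest effects among those raised on both days. It measured 5.35, 5.68 and 5.66 in vehicle and 7.93, 8.01 and 7.33 in treated mice of day 15. On day 29, vehicle mice had 6.36, 5.67, 5.95 and 5.93 and treated mice 8.31, 7.80, 8.48 and 8.37. The effects of 2.20 ± 0.22 and 2.26 ± 0.19 differed by 0.06 (95% interval -0.57 to 0.69). Mdm2, which marks p53 for destruction, rose by 0.62 and 0.50, and Zmat3, an RNA-binding protein, by 0.76 and 0.69. Their differences were -0.12 (95% interval -0.47 to 0.22) and -0.07 (95% interval -0.51 to 0.37).

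Cdkn1a, the p53-driven inhibitor of cyclin-dependent kinases, rose on day 29 (1.0 ± 0.17, adjusted p = 0.0206) and had an effect of 0.71 ± 0.20 on day 15 (adjusted p = 0.0661). It lay at 11.36, 11.62 and 11.48 in vehicle and 12.22, 12.56 and 11.82 in treated mice on day 15. The day 29 range was 11.22 to 11.54 under vehicle and 11.89 to 12.54 under fenretinide. The groups did not overlap on either day, and the difference of 0.28 was not called. The promoter of Cdkn1a, at chr17:29090729-29091028 on the plus strand, is shown because it holds CATG, 6 bases of any kind and CATG, the core spacing of a p53 site, here in capitals. The motif was in 0.712% of all promoters and in no persisting gene.
Cdkn1a: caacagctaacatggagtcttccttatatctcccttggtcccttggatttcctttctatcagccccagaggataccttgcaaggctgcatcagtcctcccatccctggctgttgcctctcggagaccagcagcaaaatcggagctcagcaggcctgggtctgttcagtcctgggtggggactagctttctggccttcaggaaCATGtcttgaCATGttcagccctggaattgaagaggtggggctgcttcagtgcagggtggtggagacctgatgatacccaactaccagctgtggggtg
The motif's first base lay 48 bases before the RefSeq start on which this window was set, the only start of the gene shown here. The windows of Eda2r and Mdm2 did not hold it, and among the genes with a called difference C77080, Il1f9 and Kcnj16 did.

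Perp, a desmosome protein of epithelia that is also a p53 target, was the list's exception. It rose by 3.08 ± 0.37 on day 15 and had an effect of -0.60 ± 0.32 on day 29, a difference of -3.68 (adjusted p = 0.00183).

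Cyclin D1 and Sox4 kept part of their rise. Ccnd1, which starts the passage from G1 to S phase, measured 9.03, 8.78 and 8.68 in vehicle and 11.37, 11.53 and 11.28 in treated mice of day 15. On day 29 the vehicle mice had 9.19, 9.17, 9.03 and 9.89 and the treated mice 10.85, 9.88, 10.30 and 10.70. The treated mice of day 29 lay between, and mouse 93 (9.88) met vehicle mouse 86 (9.89). The effect was 2.56 ± 0.25 on day 15 and 1.11 ± 0.21 on day 29. The difference of -1.45 (95% interval -2.16 to -0.74) fell short of the threshold (adjusted p = 0.052). The Ccnd1 difference between days was called with trended and robust eBayes (adjusted p = 0.0471), with array weights (0.0165), without treated mouse 59 (0.0326) and without treated mouse 91 (0.033). Sox4, a transcription factor of developing tissues named after its values were seen, was the only gene counted as both faded and persisting, at 1.83 on day 15 and 0.68 on day 29 (difference -1.15, adjusted p = 0.0202). Of its 8 probe sets, 5 had a difference of that sign.

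Other persisting genes had no common list. Clca2, a membrane protein, rose by 2.52 ± 0.39 and 1.97 ± 0.34, and Tmem255a, a membrane protein of unknown role, by 2.23 ± 0.28 and 2.12 ± 0.24. Of the 4 probe sets for Tmem255a, 2 had a difference of the same sign. Id4, an inhibitor of basic helix-loop-helix factors, rose by 1.55 and 1.45. Fcna, a lectin made by macrophages, rose by 1.87 and 1.15, and Cox6b2, a cytochrome oxidase subunit, by 1.63 and 1.02. Cpm, a carboxypeptidase, rose by 1.37 and 1.30, Dcbld1, a membrane protein, by 1.21 and 1.16, and BC028528 by 1.18 and 1.12. Cdsn, corneodesmosin, fell by 1.2 on day 15 and by 1.16 on day 29. The intervals of the difference lay within 1 log2 unit of zero for 39 of the 48 persisting genes, and 32 of the 48 were nominally smaller on day 29.

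A few persisting genes were chosen after their values were seen. Mmp9, a protease of basement membranes, rose by 0.75 and 1.10, and Cd93, an endothelial receptor, by 1.07 and 0.97. Cdkn2b, an inhibitor of the cyclin D kinases, fell by 0.80 and by 1.11. Insig2, which holds back cholesterol synthesis, was 11.08 to 11.25 in all vehicle and 10.57 to 10.81 in all treated libraries. It fell by 0.55 on day 15 and by 0.38 on day 29. Slc7a10, an amino acid carrier that marks white adipocytes, fell by 1.06 and by 0.76, and Col5a2, a fibrillar collagen chain, by 0.60 and by 0.63.

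The 12 largest faded effects included Cdh1, Cldn7 and Dsp of the general epithelium list. Of 22 measured general epithelium markers, 11 rose on day 15 (3.27% of all genes did). On day 29, 0 rose (1 at an unadjusted p under 0.05 by limma). For 10 the difference was called, all lower (1.27% of all genes). The list's median effect was 1.88 on day 15 and -0.05 on day 29, with a median difference of -1.83 against 0.01 over all genes. Its mean level was 8.51, 8.65 and 9.41 in the 3 treated mice of day 15 and 6.68 to 7.14 in the other 11 libraries.

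Prom1, a glycoprotein of epithelial microvilli, had the largest difference. It measured 6.21, 6.81 and 6.68 in vehicle and 12.17, 12.25 and 11.73 in treated mice on day 15. On day 29 it measured 6.72, 6.29, 6.62 and 6.83 in vehicle and 6.61, 6.45, 6.45 and 6.61 in treated mice. Only the treated libraries of day 15 were high. The effect went from 5.48 ± 0.18 (44.7-fold) to -0.08 ± 0.15, a difference of -5.56 ± 0.24 (adjusted p = 9.91e-08).

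Cdh1, E-cadherin of the junctions between epithelial cells, measured 3.76, 4.08 and 4.09 in vehicle and 8.05, 8.27 and 9.84 in treated mice of day 15. All 8 libraries of day 29 lay between 3.96 and 4.55. Cldn7, a claudin of tight junctions, and Dsp, which anchors desmosomes to keratin, followed the same course, with effects of 5.05 and 5.19 on day 15 and -0.05 and -0.20 on day 29. The differences were -4.54 for Cdh1, -5.10 for Cldn7 and -5.39 for Dsp (adjusted p = 0.000203, 1.4e-05 and 1.16e-05). Krt8 and Krt18, the paired keratins of simple epithelia, named after their values were seen, rose by 3.28 and 3.15 and had effects of -0.18 and 0.24 on day 29.

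The remaining named genes of this size were Kcnk1, a potassium channel, Rnf128, a ubiquitin ligase, Mia, a small secreted protein, Tmed6, a trafficking protein, Tmem30b, a subunit of lipid flippases, Arg2, the mitochondrial arginase, Calml3, an epithelial calmodulin, and 4930426D05Rik. Their day 15 effects ran from 3.78 for 4930426D05Rik to 5.25 for Calml3, and their day 29 effects from -0.15 for 4930426D05Rik to 0.43 for Rnf128. Kcnk1 measured 6.03 to 6.24 in vehicle and 10.59 to 11.54 in treated mice of day 15, against 5.85 to 6.15 in all libraries of day 29. Its difference was -4.96 ± 0.24 (adjusted p = 1.43e-07).

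The 3 treated mice of day 15 did not share one epithelial profile. Calml3 measured 11.52 and 11.56 in mice 57 and 58 and 7.19 in mouse 59. Tmem30b measured 8.91 and 8.82 in mice 57 and 58 and 11.62 in mouse 59, and Cdh1, Arg2 and Cldn7 were also highest in mouse 59. Krt5 and Krt14, keratins of stratified epithelia, had effects of 0.10 and -0.07 on day 15, and Epcam, a general epithelial adhesion molecule, -0.09. Without mouse 59, 12 of the 22 markers rose on day 15 (5.16% of all genes did) and 11 differences were called, all lower (3.81%).

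Genes of motile cilia, a list written after values were seen, separated the 3 mice further. The list's mean was 7.44 and 7.75 in mice 57 and 58, 6.11 in mouse 59 and 5.91 to 6.07 in the other 11 libraries. Enkur, a protein of cilia and sperm tails, measured 8.34 and 8.70 in mice 57 and 58 and 5.16 in mouse 59, against 4.62 to 5.12 elsewhere. With all arrays 7 of 23 measured members rose on day 15 (3.27% of all genes did), and only Cfap52 had a called difference (-2.34, adjusted p = 0.0257). Without mouse 59, 17 members rose on day 15 (5.16% of all genes did) and 16 differences were called, all lower (3.81%). Without 3 pairs of other libraries, 1 to 4 members rose and no difference was called. No test was made on the list, since it was chosen for its values.

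Lists for particular epithelia had few or no calls. With all arrays, no member was called on day 15, on day 29 or between days among 12 epididymis, 8 seminal vesicle, prostate and vas deferens, 8 mammary, 7 kidney tubule, 5 pancreas acinar, 7 skin keratinocyte and 7 testis germ cell markers. At an unadjusted p under 0.05 by limma, 1, 0, 0, 1, 1, 0 and 0 of them differed between days. Kidney tubule markers averaged 6.24, 6.17 and 6.37 in the treated mice of day 15 and 5.84 to 6.10 in the other 11 libraries, and 3 of the 7 had an unadjusted p under 0.05 on day 15. Without mouse 59, 1 of the 7 rose on day 15 and 1 difference was called, lower. With median centring, 2 epididymis, 1 mammary and 1 kidney tubule markers fell on day 15. Smooth muscle markers were high in mouse 59 alone, while mesothelium markers averaged 8.75 to 9.08 in the treated mice of day 15, within the 7.95 to 10.56 of the vehicle mice. The part of other cell types in the day 15 rise was not tested.

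**Figure D3:**
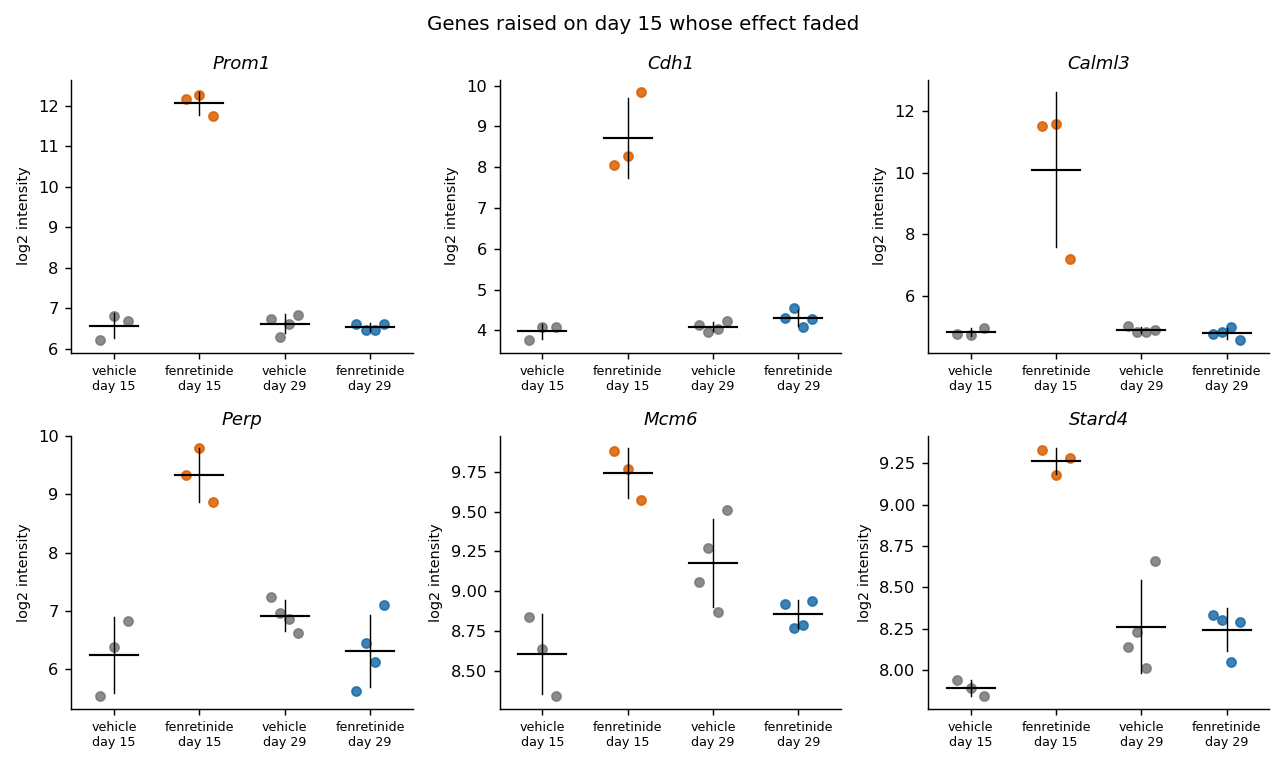
Log2 intensity of 6 faded genes, 1 point per mouse, with the mean (long line) and SD (short line) of each group. Prom1, Cdh1 and Calml3 are high in treated mice of day 15 alone, and treated mouse 59 (7.19) lies below the other 2 for Calml3.

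**Figure D4:**
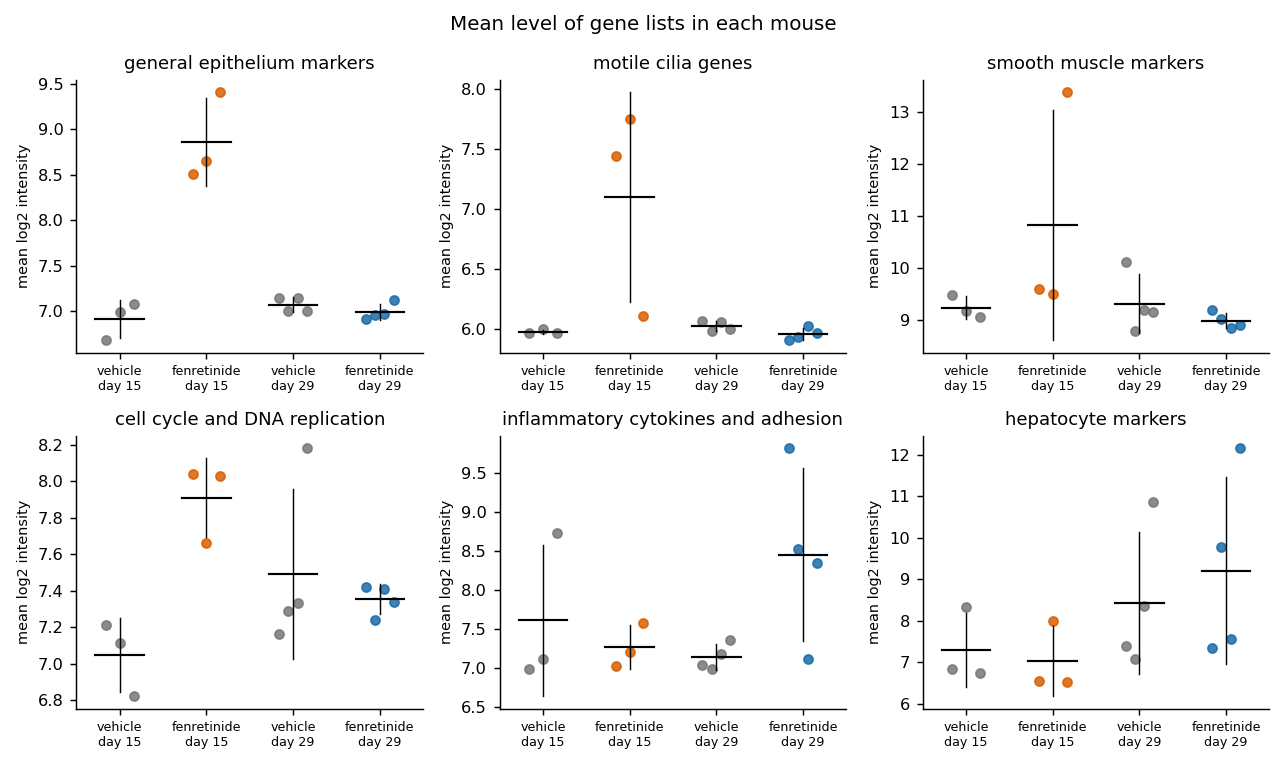
Mean log2 intensity of 6 gene lists in each mouse, with the mean (long line) and SD (short line) of each group. Epithelium markers are raised in all 3 treated mice of day 15, motile cilia genes in 2 of them (7.44 and 7.75) and smooth muscle markers in the third (13.38).

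Of 35 measured genes of DNA replication and mitosis, 13 rose on day 15 (3.27% of all genes did) and none fell. On day 29, 0 were called (3 at an unadjusted p under 0.05 by limma). The difference was called for 3, all lower (1.27% of all genes). It had an unadjusted p under 0.05 by limma for 26, against 15.7% of all genes. The list's median effect was 0.72 on day 15 and -0.15 on day 29. Its mean level was 8.04, 7.66 and 8.03 in treated and 7.21, 7.11 and 6.82 in vehicle mice of day 15. The day 29 levels were 7.24 to 7.42 under fenretinide and 7.16, 7.29, 7.33 and 8.18 under vehicle, the highest being mouse 86, one of the libraries high in hepatocyte and brown fat markers. Without mouse 86 and treated mouse 95, 20 members rose on day 15 and 4 differences were called. The count of members raised on day 15 fell to 5 without treated mouse 59, to 5 without treated mouse 93 and vehicle mouse 85, and to 2 without vehicle mouse 50 and treated mouse 91. The latter pairs each left 1 called difference, as did median centring.

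Mcm6, a subunit of the replicative helicase, measured 8.84, 8.64 and 8.34 in vehicle and 9.88, 9.77 and 9.57 in treated mice of day 15. On day 29 vehicle mice had 9.06, 9.27, 8.87 and 9.51 and treated mice 8.92, 8.77, 8.79 and 8.94. The order of the groups turned, with no called effect on day 29 (-0.32, adjusted p = 0.304), and the difference was -1.46 ± 0.21 (adjusted p = 0.00357). Of the 3 probe sets for Mcm6, 2 had that sign. Mcm5, of the same helicase, and Uhrf1, which copies DNA methylation to new strands, had differences of -1.78 and -1.17 (adjusted p = 0.0477 and 0.0423). Mki67, Top2a and Rrm2, a proliferation antigen, a topoisomerase and a ribonucleotide reductase subunit, had differences of -2.14, -1.91 and -2.55 that were not called (adjusted p = 0.185, 0.118 and 0.073). The Rrm2 difference between days was called with array weights (adjusted p = 0.0315). Of these, Top2a and Rrm2 rose on day 15, by 1.60 and 2.35.

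Several genes of lipid handling faded too. Stard4, a carrier of cholesterol inside cells, measured 7.94, 7.89 and 7.84 in vehicle and 9.33, 9.18 and 9.28 in treated mice of day 15. The day 29 ranges were 8.01 to 8.66 under vehicle and 8.05 to 8.33 under fenretinide, which overlapped fully. The effect went from 1.37 ± 0.14 to -0.02 ± 0.12 (difference -1.39, adjusted p = 0.00163). It was the only one of 15 measured genes on the cholesterol synthesis list with a called difference (1.27% of all genes were called lower). For 14 of the 15 the difference was below 0 (median -0.4), and all 15 day 29 effects were below 0 (median -0.37). All 15 rose between days in vehicle mice (median 0.74), none called. For 13 that change had an unadjusted p under 0.05 by limma, against 9.99% of all genes. Without mice 95 and 86 the list's median difference was -0.24. Sgms2 makes sphingomyelin from ceramide at the plasma membrane, and its effect went from 2.22 ± 0.26 to -0.25 ± 0.23 (difference -2.46, adjusted p = 0.00272). Degs2, which makes phytoceramide, had a difference of -0.90 (adjusted p = 0.0182). Of 19 measured sphingolipid genes these 2 alone had called differences, both lower (1.27% of all genes). Without treated mouse 59, 3 differences were called, all lower (3.81%). Without mice 95 and 86, without mice 50 and 91 and with median centring, 1 was called. The Degs2 difference was not called in those 3 settings, nor without vehicle mouse 50 or treated mouse 57 alone. Degs1, the dihydroceramide desaturase that fenretinide is known to inhibit, was not called on either day (-0.06 and -0.54, adjusted p = 0.848 and 0.0511). Acot1, a cytosolic acyl-CoA thioesterase, rose by 2.49 on day 15 and had an effect of 0.50 on day 29 (difference -1.99, adjusted p = 0.0412).

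Hypoxia genes did not move as a group. Ankrd37, a target of the hypoxia factor HIF1, rose by 0.85 on day 15 and had an effect of -0.37 on day 29 (difference -1.21, adjusted p = 0.0371). It was the only one of 24 measured members with a called difference, which was lost without mice 93 and 85, without mice 95 and 86 and without mice 50 and 91, and the list's medians were 0.06 and -0.04. Adm, adrenomedullin, rose on day 29 alone (1.44 ± 0.27, adjusted p = 0.0289) with a difference of 0.82 that was not called. Vegfa, the main vascular growth factor, had a difference of 0.84 (adjusted p = 0.24).

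Of the 22 effects that built up among the 18193 genes tested, 19 were falls on day 29. Of the 22 genes, 3 were on the collagen and matrix list. A further 1 was on the list of matrix proteases and 1 on that of fibroblasts and adipose progenitors. Of 29 measured collagen and matrix genes, 1 fell on day 15 (0.682% of all genes did) and 8 fell on day 29 (0.929%). Mfap4, Col6a2 and Col6a1 had a called difference, each lower (1.27% of all genes). The list's median effect was -0.12 on day 15 and -0.58 on day 29. Without treated mouse 93 and vehicle mouse 85, the libraries highest in brown fat and skeletal muscle markers, 3 members fell on day 29 and 2 differences were called. Without treated mouse 95 and vehicle mouse 86, 1 difference was called. With median centring, 6 members fell on day 15.

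Col6a1, a chain of the microfibrillar collagen VI, measured 11.96 to 12.12 in the 3 vehicle mice and 11.98, 12.09 and 11.73 in treated mice of day 15. On day 29 it measured 12.53, 12.58, 12.48 and 12.71 in vehicle and 11.78, 11.62, 11.37 and 11.53 in treated mice. The groups overlapped on day 15 and stood apart on day 29, where vehicle was higher than on day 15 and treated lower. The effect was -0.09 ± 0.12 on day 15 and -1.0 ± 0.10 on day 29, a difference of -0.91 (adjusted p = 0.0121). Col6a2, its partner chain, went from 0.00 to -1.29 (difference -1.29, adjusted p = 0.0385), and 1 of its 2 probe sets was called. Col3a1, a fibrillar collagen, fell by 0.67 on day 29 with a difference of -0.33 that was not called.

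Mfap4, a microfibril protein, had the largest of these differences. It measured 7.18, 7.58 and 7.65 in vehicle and 8.01, 7.86 and 8.39 in treated mice of day 15. On day 29 it measured 8.36, 8.10, 8.69 and 7.61 in vehicle and 6.53, 7.08, 6.29 and 6.47 in treated mice. Treated mice were above vehicle on day 15 and below on day 29. The effect went from 0.62 ± 0.26, not called, to -1.60 ± 0.23, a difference of -2.21 ± 0.35 (adjusted p = 0.00543).

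Adamts5, a protease that cuts aggrecan and other proteoglycans, was the only gene that both persisted and built up. It measured 11.76, 11.76 and 11.71 in vehicle and 10.99, 11.27 and 10.81 in treated mice of day 15. On day 29 vehicle mice had 12.27, 12.58, 12.47 and 12.13 and treated mice 10.82, 10.75, 10.68 and 10.98. It fell by 0.72 on day 15 and by 1.56 on day 29 (difference -0.84, adjusted p = 0.0412). The treated level moved by -0.22 between the days and the vehicle level by 0.62, neither called. All 4 probe sets had a difference of that sign. Of 15 measured matrix proteases and inhibitors, Adamts5 alone had a called difference (1.27% of all genes were called lower). For 13 of the 15 the difference was above 0, and the list's median difference was 0.36. The list's median effect was -0.19 on day 15 and 0.46 on day 29.

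Sema3c, a secreted guidance protein and a marker of adipose progenitors, went from -0.29 ± 0.20 to -1.66 ± 0.17 (difference -1.37, adjusted p = 0.0232). Its treated values on day 29 were 10.19, 10.03, 9.90 and 10.55, of which the first 3 lay below all 10 other libraries and the highest lay above treated mouse 57 of day 15 (10.35). Of 7 fibroblast and progenitor markers, 3 fell on day 29 (0.929% of all genes did). Sema3c alone differed between days, though not without mice 93 and 85 or without mice 50 and 91. Matn2, a matrix adaptor, had a difference of -1.07, Fstl3, an inhibitor of activin, of -1.27, Pdlim2, an actin-linked adaptor, of -1.92, and Golm1, a Golgi membrane protein, of -0.96. B3gnt8, which extends sugar chains, and Galns, a lysosomal sulfatase, had differences of -1.19 and -1.06, and 1 of the 2 probe sets for Galns had that sign.

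Cpt1a, which admits fatty acids to mitochondria, turned from 0.44 ± 0.13 to -0.58 ± 0.12. It measured 10.71, 10.80 and 10.57 in vehicle mice and a mean of 11.13 ± 0.17 (SD, n = 3) in treated mice of day 15, and 11.02, 11.03, 10.91 and 11.27 against 10.37, 10.37, 10.39 and 10.78 on day 29. The groups stood apart in opposite orders on the days. The difference was -1.02 (adjusted p = 0.0121), with all 3 probe sets called. Of 17 measured fatty acid oxidation genes, Cpt1a and Acot1 alone had a called difference, both lower (1.27% of all genes). The other 15 differences were above 0, and the list's median difference was 0.42. Its median effect was -0.09 on day 15 and 0.29 on day 29. Without mice 50 and 91 no member's difference was called. Gpr155, a cholesterol-sensing lysosomal protein, was called in opposite directions, at 0.71 ± 0.16 on day 15 and -0.76 ± 0.14 on day 29 (difference -1.47, adjusted p = 0.00328). Its vehicle mean went from 8.12 ± 0.24 (SD, n = 3) to 8.88 ± 0.14 (SD, n = 4), and its treated mean from 8.83 ± 0.32 to 8.11 ± 0.12.

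Of the 22 genes that built up, Id1, Gkn3 and Suclg2 were higher with fenretinide on day 29. Id1, a BMP-driven inhibitor of differentiation factors, measured 12.36, 11.94 and 11.86 in vehicle and 12.36, 11.95 and 12.60 in treated mice of day 15. On day 29 vehicle mice had 11.06, 10.82, 10.78 and 10.69 and treated mice 12.20, 11.93, 12.44 and 12.26. The vehicle mice of day 29 were low, and the other 3 groups overlapped. The effect was 0.25 ± 0.18 on day 15 and 1.37 ± 0.16 on day 29 (difference 1.12, adjusted p = 0.0412). The vehicle level moved by -1.21 between the days (adjusted p = 0.148) and the treated level by -0.10. Of 16 measured Id and BMP signalling genes, Id1 alone had a called difference (0.0605% of all genes were called higher). For 13 of the 16 the difference was below 0, and the list's median difference was -0.18. The Id1 call was lost without mice 93 and 85, without mice 95 and 86 and without mice 50 and 91. Gkn3, a gastrokine, and Suclg2, a subunit of succinyl-CoA ligase, were named after their values were seen, with differences of 0.96 and 0.59.

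The change between days was thus shared unevenly between the groups. In 14 of the 22 genes that built up, the vehicle mean moved more than the treated mean, and in 21 the groups moved in opposite directions. The count was 4 without vehicle mouse 83 and 40 without treated mouse 59.

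**Figure D5:**
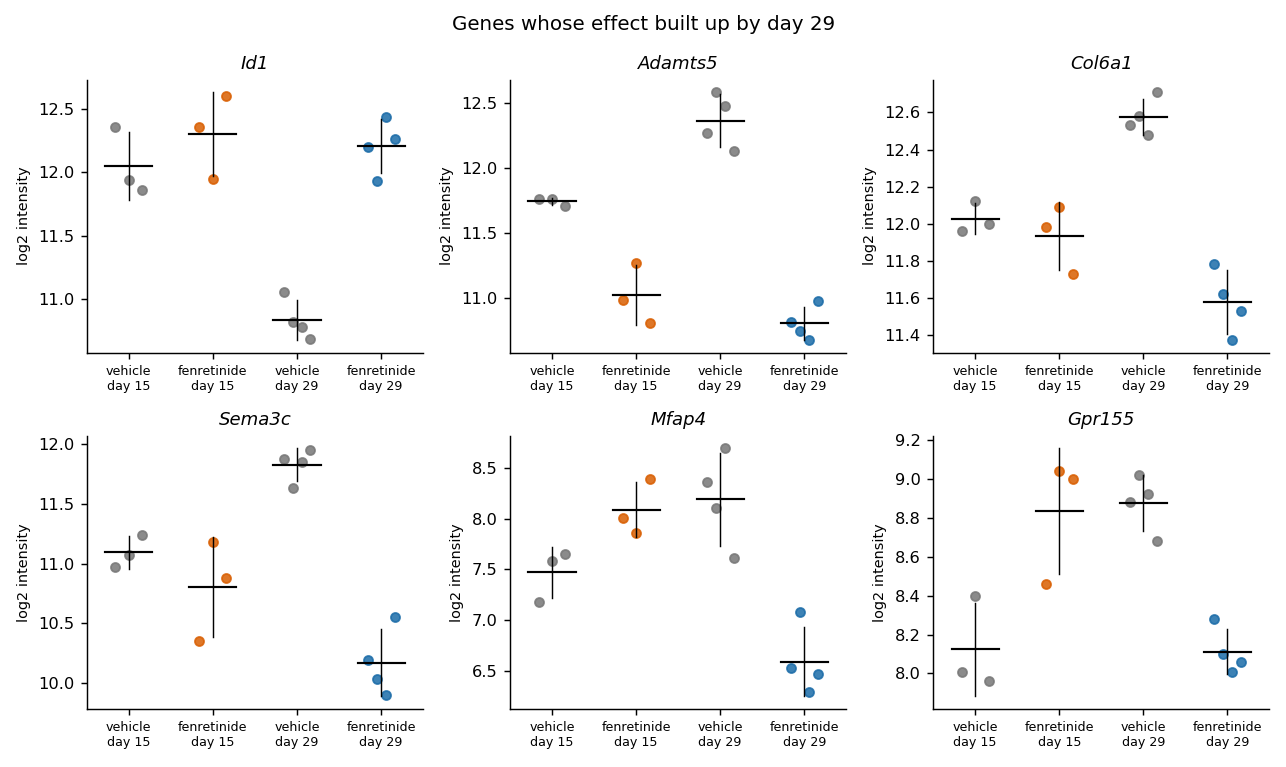
Log2 intensity of 6 genes whose effect built up, 1 point per mouse, with the mean (long line) and SD (short line) of each group. Id1 is lower in vehicle mice of day 29 (10.69 to 11.06) than in the other groups, and Col6a1, Sema3c and Adamts5 stand higher in vehicle mice of day 29 than in any treated mouse.

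Of the 15 genes with a called difference but no called day, 12 were lower and 3 higher. The 6 largest were Slc35g1, a membrane carrier (-1.93), Glis3, a zinc finger factor (-1.43), Fam174b (-1.29), Ccl4, a chemokine that attracts monocytes and lymphocytes (1.23), Ccdc34 (-1.21) and Fzd2, a Wnt receptor (-1.2). Ccl4 measured 7.89, 7.61 and 8.36 in vehicle and 7.38, 7.55 and 7.55 in treated mice of day 15, and 7.24 to 7.54 against 7.66 to 8.51 on day 29. Treated mice lay below vehicle on day 15 and above on day 29 (adjusted p of the difference 0.0454). For Fzd2 all 3 probe sets were called, and for Ccdc34 1 of 2 had the sign of the difference.

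Ccl4 was the only one of 19 measured inflammatory genes with a called difference, higher (0.0605% of all genes). The difference had an unadjusted p under 0.05 by limma for 9, against 15.7% of all genes. On day 29, 1 member rose (0.412% of all genes did) and all 19 effects were above 0. The day 29 effect had an unadjusted p under 0.05 by limma for 11, against 14.8% of all genes. The list's median effect was -0.46 on day 15 and 1.32 on day 29, with a median difference of 1.89. The list's mean on day 29 was 9.82, 8.53 and 8.35 in treated mice 91, 93 and 95, 7.11 in treated mouse 94 and 6.98 to 7.35 in vehicle mice. Vehicle mouse 50 and treated mouse 91 stood highest, and without both the median difference was 0.59. No member's difference was called then, nor without mice 93 and 85, nor without mice 95 and 86. In each of these cases no member rose on day 29, nor did any with median centring. Il6, an inflammatory cytokine, measured 7.70 in vehicle mouse 50 and 4.01 to 4.68 in the other 5 mice of day 15. The treated mice of day 29 had 9.22, 7.04, 4.18 and 6.81, and the vehicle mice 3.94 to 4.26. Its difference of 3.70 ± 1.41 was not called (adjusted p = 0.237), nor was that of Ccl2, a monocyte chemokine (2.23, adjusted p = 0.452).

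Endothelial genes showed no called difference between days among 29 measured (7 at an unadjusted p under 0.05 by limma, against 15.7% of all genes). The call depended on scaling, since median centring gave 1 member called higher, as did quantile normalization. On day 15, 5 rose (3.27% of all genes did), and 3 rose on day 29 (0.412%), with medians of 0.52 and 0.35. The number raised on day 15 was 2 without mice 50 and 91. On day 29 it was 0 without mice 95 and 86, 1 without mice 93 and 85, 2 without mice 50 and 91 and 7 after quantile normalization. Emcn, an endothelial sialomucin, rose by 0.94 on day 15 and had an effect of 0.60 on day 29. Sox17 and Sox18, transcription factors of vessels, rose on day 29 by 0.91 and 0.98 and had effects of -0.12 and 0.30 on day 15. The Sox17 difference between days was 1.04 (95% interval 0.51 to 1.56, adjusted p = 0.0592), and it was called after quantile normalization (adjusted p = 0.0336), after median centring (0.0381), without treated mouse 57 (0.0416) and without treated mouse 93 (0.0375). Its vehicle values were 10.23 to 10.27 on day 15 and 9.37 to 9.84 on day 29, while treated values were 9.89 to 10.42 and 10.18 to 10.88. Pecam1 and Kdr, an adhesion molecule and the main VEGF receptor, were not called on either day (differences -0.41 and -0.39). Apln and Angpt2, vascular ligands, rose on day 15 by 1.21 and 1.05, with differences of -0.14 and -0.59 that were not called. Id3, like Id1 a target of BMP signals, was not called on either day.

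Among adipocyte genes, 3 of 20 measured fell on day 15 (0.682% of all genes did) and 2 on day 29 (0.929%). Their median effects were -0.2 and -0.1, against -0.04 and -0.02 over all genes, and 19 and 17 of the effects were below 0. After median centring 7 fell on day 15, and without mice 93 and 85 none fell on day 29. None had a called difference (1 at an unadjusted p under 0.05 by limma), and 1 difference was called higher after median centring. Lep, the satiety hormone leptin, fell by 2.74 on day 29 (SE 0.55, adjusted p = 0.0354) and had an effect of -1.28 ± 0.63 on day 15 (adjusted p = 0.29). It measured 11.15, 12.14 and 11.64 in vehicle and 9.98, 11.77 and 9.32 in treated mice of day 15, and 13.01 to 13.41 against 8.93 to 11.55 on day 29. The groups overlapped on day 15 only, and the difference of -1.46 had an interval from -3.27 to 0.36. Ucp1, the uncoupling protein of brown fat, ran from 5.13 to 14.66 with both extremes on day 29, and its difference of 1.23 ± 2.94 was not resolved. Among all 43 lists, of pathways or of cell types, 31 had no member with a called difference, with 51 of their 347 measured genes at an unadjusted p under 0.05 by limma, near the 15.7% of all genes.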

How the data were processed

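RNA of white adipose tissue was measured on 14 Affymetrix mouse arrays, 1 per mouse. The authors deposited a linear intensity for each probe set. RMA (robust multi-array average) is the tool listed in the submitters' processing notes. Its version, its probe definitions and which arrays it took together are not stated in those sources. The table holds no detection calls, and intensity ran from 7.44 to 39426. Total RNA was extracted with Trizol and labelled with biotin, per the labels' protocols.

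Log2 was taken here. A single gene symbol was attached to 34945 of the 45101 probe sets. For each of 18193 genes, the brightest probe set on average across all 74 arrays was kept. Genes were fitted with limma 3.58.1 in R 4.3.3 (lmFit, eBayes), with 1 mean for each of the 4 groups. Adjusted p-values (Benjamini-Hochberg, all genes) below 0.05 counted as calls. Neither dim genes nor small folds were left out. SE and 95% intervals come from that fit, in which groups share 1 spread. Within-group correlations ran from 0.9763 to 0.9940 over 18 pairs, with 0 identical pairs, and the number of arrays limits the precision.

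The rule named up to 12 genes of each class (the largest by difference between days, or for persisting genes by the smaller effect) among those whose groups did not overlap on the defining days, 6 of those called between days only, up to 3 called members of each of 43 lists (588 of 642 entries measured), and genes fixed for their roles. The members, lists and named genes were chosen with earlier results of these data known. Sox4, Rxra, Sesn1, Map7, Cfap52, Enkur, Epcam, Krt5, Krt8, Krt14, Krt18, Mmp9, Cd93, Cdkn2b, Insig2, Slc7a10, Col5a2, Gkn3, Suclg2, C77080, Il1f9 and Kcnj16 fall outside that rule and were chosen after their values were seen. The scripts were tested on simulated data. Alternatives were quantile normalization, median centring, the brighter 50% of genes, averaged probe sets, trended and robust eBayes, array weights, a fold threshold of 1.5 and leaving out arrays. Promoters are RefSeq windows of GRCm38.p6. Figures used Python 3.11.15 and matplotlib 3.10.9. The labels give no batch. The other 60 arrays of the series are not analysed here, other than in choosing probe sets.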

Additional observations from a re-analysis of the deposited data

Results flagged for a closer look

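In groups of 4 mice, 13 of 166 groups tested had 1 value standing apart from the other 3 by Dixon's criterion, and chance gives about 1 in 20. Among treated mice of day 29, mouse 93 was low for Cdkn1a (11.89, others 12.51 to 12.54), Mdm2 (10.13, others 10.39 to 10.42) and Zmat3 (9.56, others 10.10 to 10.14), and high for Glis3 (5.37, others 5.03 to 5.05). These 3 p53 targets were lowest in the same animal, which was also highest in brown fat and skeletal muscle markers; their part in these values was not tested. Mouse 94 was low for Stard4 (8.05) and Matn2 (9.25) and high for Tmem255a (8.70). Mouse 91 was high for Id3 (11.70) and low for Fzd2 (6.92), and mouse 95 was high for Cpt1a (10.78) and Tmem30b (6.59). Among vehicle mice of day 29, mouse 86 was high for Apln (9.18) and mouse 85 for Glis3 (6.32).

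The effect of fenretinide differed between days, by the limma interaction, for 41 of the named genes. Among the 12 largest faded effects and Perp the difference was -5.56 for Prom1, -5.39 for Dsp, -5.36 for Calml3, -5.10 for Cldn7, -4.96 for Kcnk1, -4.58 for Tmem30b, -4.54 for Cdh1 and -4.53 for Rnf128. It was -4.51 for Mia, -4.25 for Tmed6, -4.21 for Arg2, -3.93 for 4930426D05Rik and -3.68 for Perp. Among other faded genes it was -2.46 for Sgms2, -1.99 for Acot1, -1.78 for Mcm5, -1.46 for Mcm6, -1.39 for Stard4, -1.21 for Ankrd37, -1.17 for Uhrf1 and -0.90 for Degs2. Among genes that built up it was -2.21 for Mfap4, -1.92 for Pdlim2, -1.47 for Gpr155, -1.37 for Sema3c, -1.29 for Col6a2, -1.27 for Fstl3 and -1.19 for B3gnt8. It was -1.07 for Matn2, -1.06 for Galns, -1.02 for Cpt1a, -0.96 for Golm1, -0.91 for Col6a1, -0.84 for Adamts5 and 1.12 for Id1. Where neither day was called it was -1.93 for Slc35g1, -1.43 for Glis3, -1.29 for Fam174b, -1.21 for Ccdc34, -1.20 for Fzd2 and 1.23 for Ccl4.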

How the results depend on the processing

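Median centring gave 2308 calls on day 15, 1311 in the treated change between days and 102 persisting genes. The brighter 50% of genes gave 80 differences between days, 358 calls on day 15, 402 on day 29, 207 in the treated change and 63 faded genes, with fewer genes tested. Array weights gave 746 differences, 2186 calls on day 15, 1 in the vehicle change, 1259 in the treated change, 622 faded, 60 built up and 98 persisting genes. Without treated mouse 93 and vehicle mouse 85 there were 127 differences, 42 calls on day 29, 309 in the treated change, 112 faded, 6 built up and 17 persisting genes. Without treated mouse 95 and vehicle mouse 86 there were 122 calls on day 29 and 12 genes that built up. Without vehicle mouse 50 and treated mouse 91, chosen after seeing the data, there were 136 differences, 355 calls on day 15, 117 faded, 12 built up and 20 persisting genes. Apart from fewer samples or genes, the cause was not tested.

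Leaving out 1 array gave 125 to 716 differences, 339 to 1023 calls on day 15, 51 to 319 on day 29, 0 to 1 in the vehicle change and 332 to 912 in the treated change. Faded genes numbered 110 to 625, built up 4 to 40 and persisting 14 to 57. Of 41 named genes with a called difference, 16 were called in each setting that could be run, and none reversed; over all named genes, 274 gene and setting pairs lost a call and 9 gained one, out of 24 settings. No paired analysis was possible because the white fat mice of different groups share no replicate numbers. The number of arrays limits small differences, and the table has no detection calls.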
